A study of Mus musculus with 11 samples.

Results

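The comparison described here set polysomal RNA from the lungs of mice lacking both Eif4ebp1 and Eif4ebp2 (labelled 4ebp1-/-/4ebp2-/-) against polysomal RNA from wild-type lungs. The arrays were chosen by the labelled source of their RNA, 3 from knockout and 2 from wild-type lung, which makes 5 of the 11 arrays in the series. The other 6 arrays held total RNA, 3 from each genotype, and are used here only beside the polysomal values. All mice were Balb/c. The knockout animals came from the laboratory of a collaborator and the wild-type animals from a commercial breeder, so genotype and source of the mice cannot be told apart. Mice of both genotypes received the purified diet AIN-93M from 5 weeks of age, and the labels used here give no sex, no age at collection and no treatment beyond the diet. The labels name no tissue to which the deletion is restricted. Lysate was separated on a gradient into 10 fractions, and fractions 7 to 10, in which a transcript carries at least 3 ribosomes, were combined as the polysomal RNA. From each RNA, 100 ng was labelled with biotin over 2 cycles of amplification. Whether each array stands for a mouse of its own is not stated, and the p-values here reflect only how far these arrays spread, a spread that may be technical.

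4E-BP1 and 4E-BP2 are small repressors that hold eIF4E, the protein that recognises the cap, away from the scaffold eIF4G, which is needed to bring a ribosome to the capped end of a message. The kinase mTOR phosphorylates them and thereby releases eIF4E. A message that starts translation more often carries more ribosomes and travels to heavier fractions, so the level of a message in the heavy pool depends both on how much of it there is and on how densely it is loaded. The lung mixes alveolar type 1 and type 2 cells, ciliated and club cells of the airways, a dense capillary bed, fibroblasts and resident macrophages, and the RNA here comes from all of them together.

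Values are log2 signal, 1 value for each probe set and array, and every difference is knockout minus wild type in log2 units, so that 1 unit is a 2-fold change. Standard errors (SE) and adjusted p-values come from 1 limma fit across all 11 arrays, with Benjamini-Hochberg adjustment over all 13802 probe sets tested and 0.05 as the threshold. "Rose", "fell" and "changed" are used only for genes past it. Probe sets too dim to test had a median of 2.30 to 2.35 on the polysomal arrays, and this is called the floor below. The surfactant gene Sftpc, which defines alveolar type 2 cells, lay at 16.01 to 16.17 and the club cell gene Scgb1a1 at 16.26 to 16.39 on the 5 polysomal arrays, so defining markers of lung were high on all of them. Between replicates of a group the median absolute difference of a gene was 0.14 to 0.18 log2.

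Of 8085 genes tested, 1223 changed in polysomal RNA (15.1%), 676 of them higher (8.36%) and 547 lower (6.77%) in knockout. The median size of a change was 0.70 among the genes that rose and -0.69 among those that fell. At least 2-fold changes were seen in 266 genes, 137 higher and 129 lower, and at least 4-fold changes in 10 that rose and 12 that fell. Among the changed genes 55.3% were higher; quantile normalization put this share at 52.5% and equal array medians at 45.1%. No called gene changed sign under either scaling. A gene was tested if its log2 value reached 5 on at least 2 of the 11 arrays. Of the 676 genes that rose, 16 met this only through the knockout polysomal arrays, and of the 547 that fell, 26 only through the wild-type polysomal arrays, so for these genes a difference is built into their entry. Those named below are Dscc1, Nrm and Tk1 among the rises and Cd163l1, Ciart, Dnaic1, Eif4ebp2, Fgfr4, Kat2a, Nr4a2, Spock2 and Thbs1 among the falls. Of the 7799 genes that meet the filter on the total RNA arrays alone, counted so after the data had been seen, 656 rose (8.41%) and 491 fell (6.3%). Knockout and wild-type arrays did not overlap in 3957 genes (48.9%), among them all 1223 that changed, so non-overlap adds nothing to a call.

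**Figure D1:**
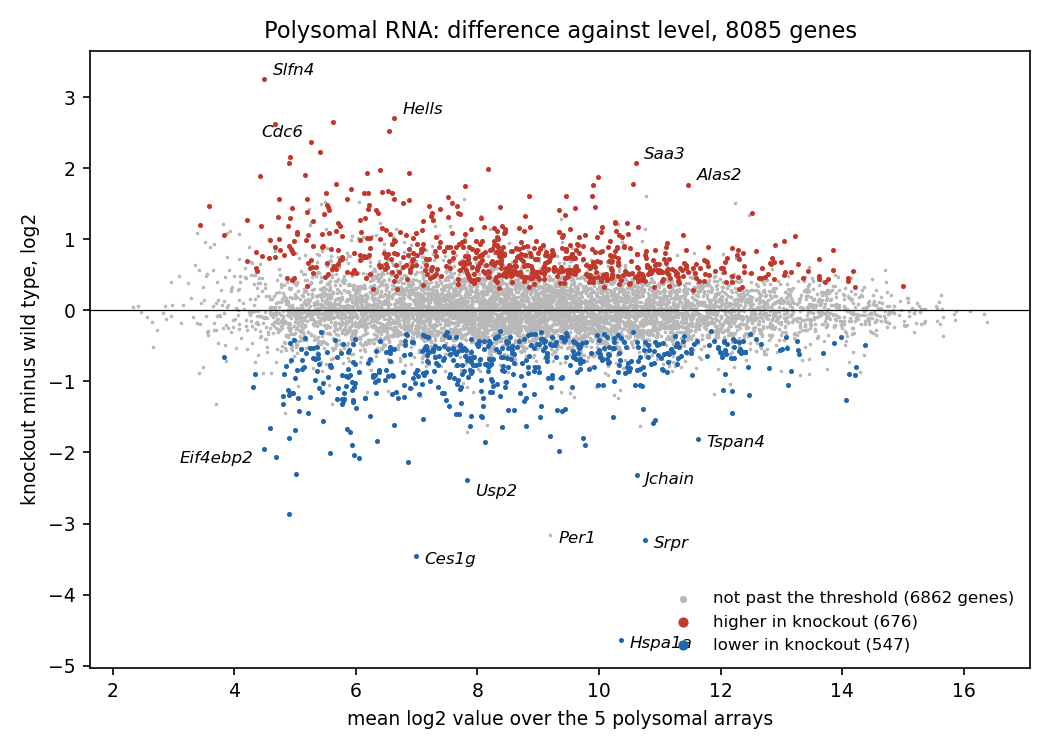
Each point is 1 of 8085 genes. The horizontal axis gives its mean log2 value over the 5 polysomal arrays and the vertical axis knockout minus wild type in log2 units. Red marks the 676 genes that rose, blue the 547 that fell and grey the rest. Hspa1a at -4.64, Ces1g at -3.46 and Srpr at -3.23 lie farthest down, and Per1 at -3.16 is grey because its 3 knockout arrays differ widely.

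With 2 wild-type arrays the calls lean on single arrays. Of the 1223 changed genes, 328 (26.8%) kept their call and direction when each of the 5 polysomal arrays was left out in turn, 181 that rose and 147 that fell. The count of changed genes was 708 without wild-type replicate 1, 619 without wild-type replicate 2, 791, 757 and 930 without knockout replicates 1, 2 and 3. Genes in the 328 are called stable in what follows. For other genes the arrays whose removal ended the call are named, or counted, with the largest adjusted p that resulted.

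The targeted genes come first. Eif4ebp2 read 5.76 and 6.09 on the wild-type polysomal arrays and 3.90, 3.92 and 3.75 on the knockout arrays. Eif4ebp2 fell by 2.07 (SE 0.28, limma adjusted p = 0.0025), a stable call. It passed the filter only through the wild-type polysomal arrays, so a difference is built into its entry. In total RNA, on other arrays, its difference was -1.90 (SE 0.25, limma adjusted p = 0.0016). Eif4ebp1 read 7.78 and 7.93 in wild type and 7.36, 7.05 and 7.15 in knockout. It fell by 0.67 (SE 0.13, limma adjusted p = 0.0096), a call lost without wild-type replicate 2 (adjusted p = 0.064). Its signal stayed far above the floor in knockout, and whether its probes fall within the deletion is not given. Neither gene is therefore a clean check of the labels.

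The remaining members of the cap-binding machinery moved by less than the targeted genes. Eif4ebp3, the third repressor of the family, fell by 0.49 (SE 0.12, limma adjusted p = 0.025), and eIF4E itself, Eif4e, rose by 0.44 (SE 0.10, adjusted p = 0.022). Eif4e read 8.84 and 8.83 in wild type and 9.21, 9.33 and 9.27 in knockout. Its atypical relative Eif4e3 rose by 0.57 (SE 0.13, adjusted p = 0.017). Removing any of 3 arrays ended the call for Eif4e (adjusted p up to 0.089), that for Eif4ebp3 with any of 4 (up to 0.14), and that for Eif4e3 without either wild-type array (up to 0.090). Of the 17 tested 4E-BPs and cap-binding factors, 2 rose (11.8%), 3 fell (17.6%) and 12 did not pass, with a median of 0.00. Over all genes 8.36% rose and 6.77% fell. The 3 that fell are Eif4ebp1, Eif4ebp2 and Eif4ebp3. The first 2 of these are the targeted genes, so the share that fell is no result about the other members.

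Among 34 other initiation and elongation factors, 3 rose (8.82%), 5 fell (14.7%) and 26 did not pass, against 8.36% and 6.77% of all genes. Eif5, which triggers GTP hydrolysis on the scanning ribosome, rose by 0.52 (SE 0.10, limma adjusted p = 0.0080), and Eef2k, the kinase that inactivates elongation factor eEF2, fell by 0.70 (SE 0.12, adjusted p = 0.0055). Both were stable. The others were 2 subunits of eIF2 and eIF3 that rose (Eif2s2 at 0.54 and Eif3a at 0.83) and 4 genes that fell: the eIF3 subunits Eif3g at -0.40 and Eif3k at -0.48, the exchange factor subunit Eif2b2 at -0.50 and the heme-regulated kinase Eif2ak1 at -0.53, with calls lost when any of 3 to 5 arrays was left out.

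Of 15 tested messages that textbooks describe as sensitive to eIF4E, 1 rose (6.67%), 1 fell (6.67%) and 13 did not pass. The shares over all genes were 8.36% and 6.77%. Their differences ran from -0.72 to 0.97, and the median was -0.01, the same as over all genes. Since 100 ng of each RNA was labelled, values are relative within the heavy pool, and a shift shared by all messages would not show. Vegfa, the endothelial growth factor, read 8.98 and 8.74 in wild type and 8.79, 8.98 and 8.81 in knockout, and the groups overlapped. Ccnd1, cyclin D1, lay at 0.16 (SE 0.13, limma adjusted p = 0.44) and Myc at -0.25 (SE 0.30, adjusted p = 0.64). The survival factor Mcl1 fell by 0.37 (SE 0.11, adjusted p = 0.046), lost on removal of any of 4 arrays (up to 0.19), and Rrm2, a ribonucleotide reductase subunit, rose by 0.97 (SE 0.27, adjusted p = 0.040), likewise lost with any of 4 (up to 0.25). Of 79 cytosolic ribosomal protein genes listed only 20 were tested, so the result covers a minor part of the class. Of the 20 none rose in the limma fit, 1 fell (Rpl37a at -0.84) and 19 did not pass. At an unadjusted p under 0.05, 0 lay above and 1 below 0. The Rpl37a call was lost without wild-type replicate 2 or knockout replicate 2 (up to 0.15).

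Messages of DNA replication were higher on knockout polysomes. Of 40 tested replication genes 11 rose (27.5%, against 8.36% of all genes), none fell in the limma fit, and the median was 0.35 against -0.01 over all genes. At an unadjusted p under 0.05, 20 lay above 0 and none below. Among the 38 that pass the filter on the total RNA arrays 9 rose (23.7%). Hells, a chromatin remodeller of dividing cells, read 4.91 and 5.09 on the wild-type arrays and 7.88, 7.65 and 7.62 on the knockout arrays, a rise of 2.71 or 6.55-fold (SE 0.28, limma adjusted p = 0.00083). Cdc6, which loads the replicative helicase onto origins, read 3.62 and 4.05 in wild type and 5.89, 6.58 and 6.17 in knockout, a rise of 2.38 (SE 0.23, adjusted p = 0.00075). No knockout array came within 1 log2 unit of a wild-type array for either gene, although the wild-type values of Cdc6 were within 2 units of the floor.

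The same held for genes that act at the fork and in nucleotide supply. Tk1, thymidine kinase, read 4.44 and 4.77 in wild type and 6.33, 6.86 and 5.97 in knockout (a rise of 1.78, SE 0.23, limma adjusted p = 0.0020). Mcm6, a subunit of the replicative helicase, read 9.59 and 9.44 against 10.95, 10.80 and 10.54 (1.25, SE 0.15, adjusted p = 0.0015). Dscc1, a loader of the sliding clamp, rose by 2.16 from wild-type values of 3.78 and 3.45, and like Tk1 it passed the filter only through the knockout polysomal arrays. Rises were also seen for the fork protein Tipin, by 1.10 (SE 0.17), and for cyclin E2, Ccne2, by 1.65 (SE 0.29). These 7 genes were stable. The helicase subunits Mcm5 (0.62) and Mcm7 (0.68), the licensing factor Cdt1 (0.55) and Rrm2 (0.97) rose without being stable. The count of replication genes that rose was 7 without knockout replicate 2 and 8 without either wild-type replicate 1 or knockout replicate 1.

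In total RNA, measured on other arrays, 11 of the 40 replication genes rose and none fell, where 17.2% of all genes rose and 5.97% fell. Cdc6 rose there by 1.25 (limma adjusted p = 0.0037) and Mcm6 by 1.06 (adjusted p = 0.0013), whereas Hells at 0.55 (SE 0.25, adjusted p = 0.14) and Tk1 at 0.20 (adjusted p = 0.53) did not pass. A test of the difference itself (the interaction) called 22.3% of all genes, 8.06% above and 14.2% below 0. In it the polysomal change exceeded the total RNA change for 5 of the 11 that rose on polysomes, by 2.16 (SE 0.38, adjusted p = 0.0067) for Hells. Among all genes that rose on polysomes this share was 59.2%, and the test uses the same polysomal arrays as their calls. For Mcm6 the interaction was 0.18 (SE 0.20, adjusted p = 0.55).

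Mitosis genes rose in 10 of 23 tested cases (43.5%, against 8.36% of all genes). None fell in the limma fit, and 13 did not pass, with a median of 0.52. At an unadjusted p under 0.05, 13 lay above 0 and none below. Nusap1, which bundles spindle microtubules, read 5.59 and 4.47 in wild type and 7.52, 7.51 and 7.62 in knockout (a rise of 2.52, SE 0.35, limma adjusted p = 0.0027). Ect2, which directs the cleavage furrow, read 4.67 and 4.75 against 6.02, 6.46 and 5.91 (1.42, SE 0.21, adjusted p = 0.0029). Smc4, a core subunit of condensin, read 8.66 and 8.61 against 9.70, 10.30 and 9.92 (1.34, SE 0.21, adjusted p = 0.0038). The 3 genes were stable, as was the kinetochore gene Spc25 (2.63, SE 0.44), whose wild-type values of 3.47 and 2.72 were near the floor.

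Top2a, the topoisomerase that disentangles sister chromatids, rose by 1.66 (SE 0.35, limma adjusted p = 0.014), lost without wild-type replicate 1 (adjusted p = 0.094). The condensin subunit Ncapg2 rose by 1.90 from near the floor, lost on removal of any of 4 arrays (up to 0.088). Mitosis genes that rose numbered 5 without wild-type replicate 2 or knockout replicate 2, 6 without knockout replicate 1 and 7 without wild-type replicate 1. Averaged over the 23 tested genes, the log2 value was 6.32 to 6.49 on the wild-type and 7.12 to 7.19 on the knockout polysomal arrays, and 6.87 to 7.23 against 7.41 to 7.54 in total RNA. In total RNA 6 of the 23 rose and none fell, where 17.2% of all genes rose and 5.97% fell.

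DNA repair genes rose in 6 of 23 tested cases (26.1%) and fell in 1 (4.35%), against 8.36% and 6.77% of all genes. Fignl1, which acts in recombination repair, read 5.62 and 4.78 in wild type and 7.24, 7.37 and 6.94 in knockout (1.98, SE 0.28, limma adjusted p = 0.0027). Lig4, the ligase of end joining, read 6.88 and 6.82 against 7.96, 8.43 and 8.28 (1.37, SE 0.22, adjusted p = 0.0042), and Rmi1, which helps dissolve crossed strands, 6.22 and 5.88 against 6.85, 6.88 and 6.81 (0.80, SE 0.12, adjusted p = 0.0036). These 3 were stable. Lig4 and Rmi1 went the other way in total RNA, where they fell by 0.88 (adjusted p = 0.013) and by 0.63 (adjusted p = 0.0044). The uracil glycosylase Ung (1.46), lost without wild-type replicate 2 (0.091), and the damage sensor Xpa (0.90), lost without either wild-type array (up to 0.073), rose as well, and the nuclease subunit Ercc1 fell by 0.51, lost when any of the 5 was left out (up to 0.21).

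Of 33 tested p53 targets, cell cycle inhibitors and apoptosis genes 5 rose (15.2%) and 1 fell (3.03%), against 8.36% and 6.77% of all genes. Ccng1, cyclin G1, a p53 target, read 5.96 and 6.09 in wild type and 7.30, 7.01 and 6.76 in knockout (0.99, SE 0.15, limma adjusted p = 0.0036) and was stable, while in total RNA it did not pass (adjusted p = 1). The kinase inhibitors Cdkn2c (1.12) and Cdkn2b (0.71) and the retinoblastoma family members Rb1 (0.52) and Rbl1 (0.54) rose, each lost without wild-type replicate 2 and the latter pair also without 1 knockout array (up to 0.15). The count that rose was 2 without wild-type replicate 2.

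Promoter sequence is shown for members of these groups because their genes moved together. Sequences are from RefSeq, build GRCm38.p6, and give the 100 bases just before a start site, in the direction of transcription, with matches in capitals. Searched on both strands in the 250 bases before each start site were the E2F cores TTCCCGC and TTGGCGC in replication genes, and TTTGAA (the core of the cell-cycle homology region, CHR) and CCAAT in mitosis genes. Hells is at chr19:38930890-38930989 on the plus strand, Mcm6 at chr1:128359706-128359805 on the minus strand, Top2a at chr11:99024190-99024289 on the minus strand and Ncapg2 at chr12:116405336-116405435 on the plus strand.
Hells: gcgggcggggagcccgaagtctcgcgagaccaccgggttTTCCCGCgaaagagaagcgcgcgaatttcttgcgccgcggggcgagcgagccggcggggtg
Mcm6: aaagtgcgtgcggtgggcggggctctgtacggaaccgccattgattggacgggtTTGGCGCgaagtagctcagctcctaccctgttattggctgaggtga
Top2a: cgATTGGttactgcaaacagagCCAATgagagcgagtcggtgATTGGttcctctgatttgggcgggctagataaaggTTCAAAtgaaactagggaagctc
Ncapg2: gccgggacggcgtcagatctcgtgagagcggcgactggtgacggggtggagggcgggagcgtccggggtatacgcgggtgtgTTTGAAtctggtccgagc

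Hells carries TTCCCGC 61 bases and Mcm6 TTGGCGC 46 bases before the start site. Top2a holds 3 CCAAT matches, 2 of them as the reverse complement ATTGG, and TTTGAA as its reverse complement 23 bases before the start site, and Ncapg2 has TTTGAA 18 bases before it. Over 250 bases TTCCCGC was found in 3 of 8 replication genes that rose and have a promoter in the table (Cdc6, Mcm7 and Hells), in 23.5% of all listed replication genes, in 8% of the genes tested and in 3.82% of all 32851 promoters. TTGGCGC was found in 2 of 8 (Mcm5 and Mcm6), in 9.8% of those listed, in 4.04% of the genes tested and in 1.97% of all promoters. TTTGAA was found in 3 of 7 mitosis genes that rose, in 38.1% of all listed mitosis genes, in 12.7% of the genes tested and in 16% of all promoters. CCAAT was found in 4 of 7, in 66.7% of those listed, in 40.5% of the genes tested and in 33.8% of all promoters. A match is a description of the letters and no evidence of binding.

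Zinc finger genes whose symbols start with Zfp, many of which encode DNA-binding repressors with rows of fingers, were higher on knockout polysomes. Of 137 tested members 26 rose (19%, against 8.36% of all genes), none fell in the limma fit and 111 did not pass, with a median of 0.17. At an unadjusted p under 0.05, 45 lay above and 5 below 0. Zfp120 read 4.87 and 4.92 on the wild-type and 6.74, 6.80 and 6.28 on the knockout polysomal arrays (1.71, SE 0.15, limma adjusted p = 0.00048). Zfp943 read 6.75 and 6.71 against 7.95, 8.23 and 7.95 (1.31, SE 0.17, adjusted p = 0.0022), and Zfp367 read 6.24 and 6.12 against 7.34, 7.27 and 7.14 (1.07, SE 0.10, adjusted p = 0.00061). Zfp946 had the largest rise of the family, from 4.54 and 3.61 to 6.02, 6.40 and 6.51 (2.24, SE 0.33, adjusted p = 0.0032).

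Of the 26, 12 were stable, and the count that rose was 16 without either wild-type array or without knockout replicate 2, 20 without knockout replicate 1 and 24 without knockout replicate 3. With equal array medians 23 rose and 1 fell, and with quantile normalization 23 rose. In total RNA the family leaned the other way: 5 of 137 rose and 27 fell, where 17.2% of all genes rose and 5.97% fell. Zfp943 fell there by 0.70 (limma adjusted p = 0.011) and Zfp946 by 1.05 (adjusted p = 0.031). For 24 of the 26 the polysomal change exceeded the total RNA change in the interaction test, as it did for 59.2% of all genes that rose. The excess was 3.28 (SE 0.44, adjusted p = 0.0031) for Zfp946 and 2.01 (SE 0.23, adjusted p = 0.0023) for Zfp943. In wild type the median level of the 137 genes was 6.71 in polysomal and 8.14 in total RNA, against 8.75 and 8.44 over all genes. Probe sets of related family members may share signal, which was not tested.

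In other lists of nuclear and ubiquitin genes the calls were mostly rises. Of 51 tested ubiquitin proteases and conjugating enzymes 9 rose (17.6%) and 1 fell (1.96%), where 8.36% of all genes rose and 6.77% fell. Ube2v2, the inactive partner with which Ube2n builds signalling chains, had the smallest p of all genes that rose: 4.18 and 4.32 in wild type against 5.90, 5.77 and 5.79 in knockout (1.57, SE 0.10, limma adjusted p = 0.00017). In total RNA it fell by 0.61 (adjusted p = 0.0020). The protease Usp15 rose by 1.03 (SE 0.16, adjusted p = 0.0034), and Usp2, an enzyme with a daily rhythm, fell by 2.38 (below). Of the 9 that rose, Ube2v2 and Usp15 were stable, and the count was 3 without wild-type replicate 1, 5 without wild-type replicate 2 and 6 without knockout replicate 1. Splicing factors and RNA helicases rose in 9 of 57 cases (15.8%) and fell in 2 (3.51%). Qk, which controls splicing and stability, rose by 1.23 (SE 0.15, adjusted p = 0.0019), Hnrnpd by 0.74 (SE 0.12, adjusted p = 0.0050), and the splicing factor Luc7l fell by 1.26 (SE 0.19, adjusted p = 0.0032). The count of splicing genes that rose was 3 without wild-type replicate 1, 4 without wild-type replicate 2 and 6 or 7 without a knockout array, and 1 fell without wild-type replicate 2, knockout replicate 1 or knockout replicate 2.

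Chromatin regulators rose in 7 of 49 cases (14.3%, against 8.36% of all genes) and fell in 1 (2.04%, against 6.77%), Kat2a, a histone acetyltransferase (-0.39). The Polycomb subunit Bmi1 rose by 0.81 (SE 0.15, limma adjusted p = 0.0071) and the remodeller Smarca5 by 0.56 (SE 0.10, adjusted p = 0.0075), both stable. The largest rise of the list, 2.71, was that of Hells, also stable and already counted above among the replication genes. The count of chromatin genes that rose was 4 without either wild-type array or without knockout replicate 2. Ezh2, the methyltransferase of Polycomb, read 8.56 and 8.02 against 9.20, 8.92 and 8.92 (0.72, adjusted p = 0.049), lost on removal of any of 4 arrays (up to 0.31). The transcription factor Sp3 read 9.56 and 9.48 in wild type and 10.76, 10.91 and 10.58 in knockout (1.23, SE 0.11, adjusted p = 0.00058). Pnrc2, an adaptor of messenger decapping, read 9.70 on both wild-type arrays and 10.77, 10.74 and 10.76 in knockout (1.06, SE 0.09, adjusted p = 0.00048). Nrm, a protein of the inner nuclear membrane, rose by 1.94 (SE 0.17, adjusted p = 0.00049), and the kinase Rock1, which drives actomyosin contraction, by 1.88 (SE 0.25, adjusted p = 0.0024). These 4 were stable, but Nrm passed the filter only through the knockout polysomal arrays.

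**Figure D2:**
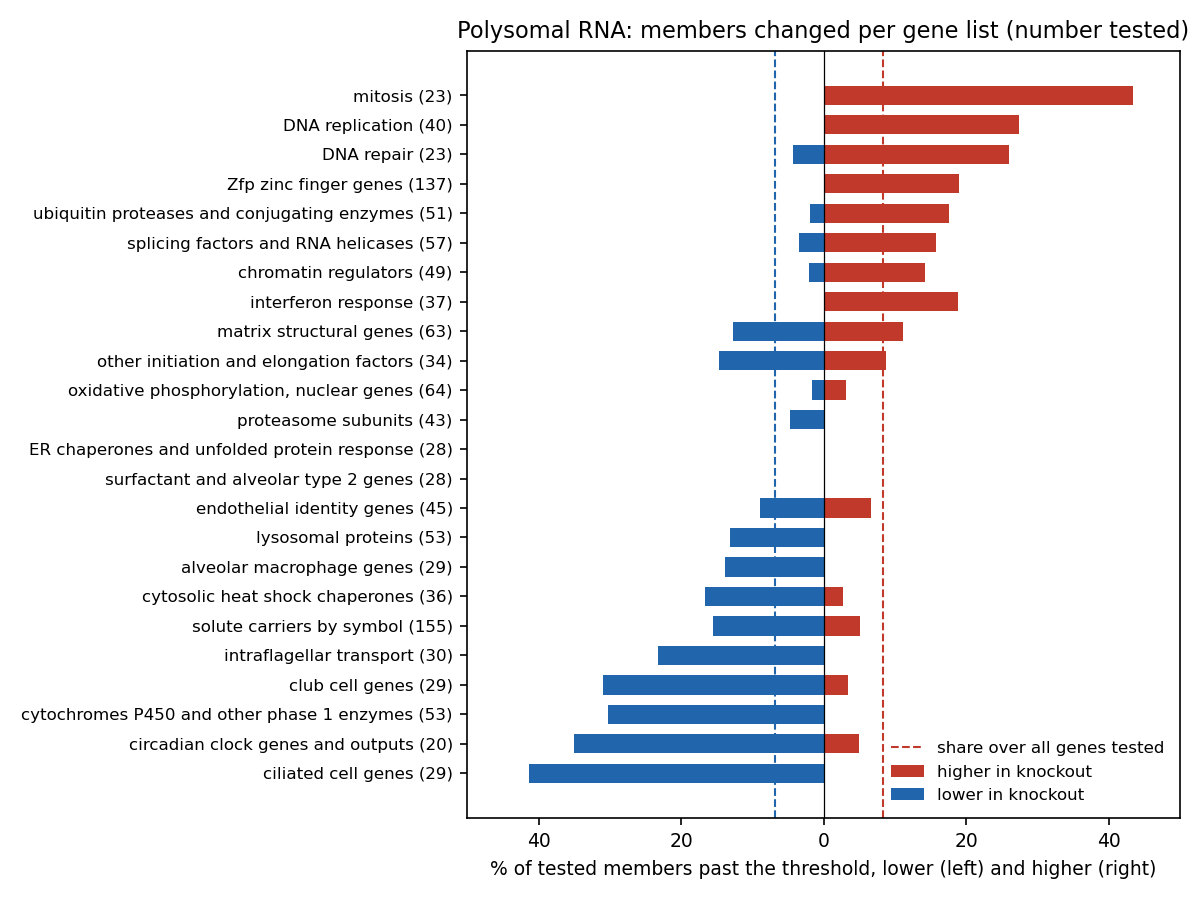
Bars give the percentage of the tested members of each gene list that fell (blue, left) or rose (red, right) in knockout polysomal RNA, with the number tested in brackets. Dashed lines mark the shares over all 8085 genes, 6.77% lower and 8.36% higher. Mitosis reaches 43.5% higher and ciliated cell genes 41.4% lower, while alveolar type 2 and endoplasmic reticulum chaperone genes have no bar.

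Ciliated cell genes were lower on knockout polysomes. Of 29 tested, 12 fell (41.4%, against 6.77% of all genes), none rose in the limma fit, and 17 did not pass. At an unadjusted p under 0.05, 15 lay below 0 and none above. All 29 values lay below 0, from -2.08 to -0.02, with a median of -0.73. Among the 28 that pass the filter on the total RNA arrays 11 fell (39.3%). Foxj1, the transcription factor that switches on the motile cilium programme, read 9.30 and 9.75 in wild type and 8.39, 8.11 and 8.27 in knockout, so it fell by 1.27 (SE 0.17, limma adjusted p = 0.0026). Dnaic1, an intermediate chain of the outer dynein arm, read 5.84 and 5.50 against 3.66, 3.92 and 3.57, so it fell by 1.96 (SE 0.25, adjusted p = 0.0019), but it passed the filter only through the wild-type polysomal arrays. Zmynd10, which helps assemble dynein arms, read 8.10 and 7.94 against 6.51, 6.49 and 6.49 (-1.53, SE 0.18, adjusted p = 0.0015). As in all genes that fell, every knockout array of these 3 was below both wild-type arrays.

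Ak8, an adenylate kinase of cilia, fell by 2.08 (SE 0.23, limma adjusted p = 0.0010), the dynein gene Dnali1 by 1.15 (SE 0.18), the microtubule protein Tekt2 by 1.24 (SE 0.22) and the cadherin Cdhr3 by 0.93 (SE 0.13). These 7 genes were stable. The count that fell was 7 without wild-type replicate 1 and 9 to 11 without any of the other arrays. The mean over the 29 tested genes was 8.10 to 8.27 on the wild-type and 7.36 to 7.48 on the knockout polysomal arrays, and 7.17 to 7.79 against 7.12 to 7.29 in total RNA. In total RNA 9 of the 29 fell and 1 rose, where 5.97% of all genes fell and 17.2% rose. For 6 of the 12, among them Foxj1 (-1.60, limma adjusted p = 0.0043), the polysomal change was below the total RNA change in the interaction test. Among all genes that fell on polysomes this share was 55.4%. In bulk tissue, fewer cells of a type and less RNA per cell cannot be told apart, and the part of ribosome loading in these falls was not tested.

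Intraflagellar transport is the train system that builds cilia. Of 30 tested genes 7 fell (23.3%, against 6.77% of all genes), none rose in the limma fit, and 23 did not pass. The median was -0.14, with 9 values above and 21 below 0. At an unadjusted p under 0.05, 9 lay below 0 and none above. Ift122, a subunit of the returning train, read 7.51 and 7.50 in wild type and 6.72, 6.71 and 6.57 in knockout (-0.83, SE 0.08, limma adjusted p = 0.00077). Wdr35, of the same complex, fell by 0.93 (SE 0.16, adjusted p = 0.0055) and Dync2h1, the heavy chain of its motor, by 1.15 (SE 0.20, adjusted p = 0.0057). The 3 were stable. Ift88 at -0.75 was lost without wild-type replicate 2 (adjusted p = 0.053), and Bbs2, Ift140 and Ift172 were lost when any of the 5 arrays was left out (up to 0.27). Leaving out any array left 4 genes that fell.

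**Figure D3:**
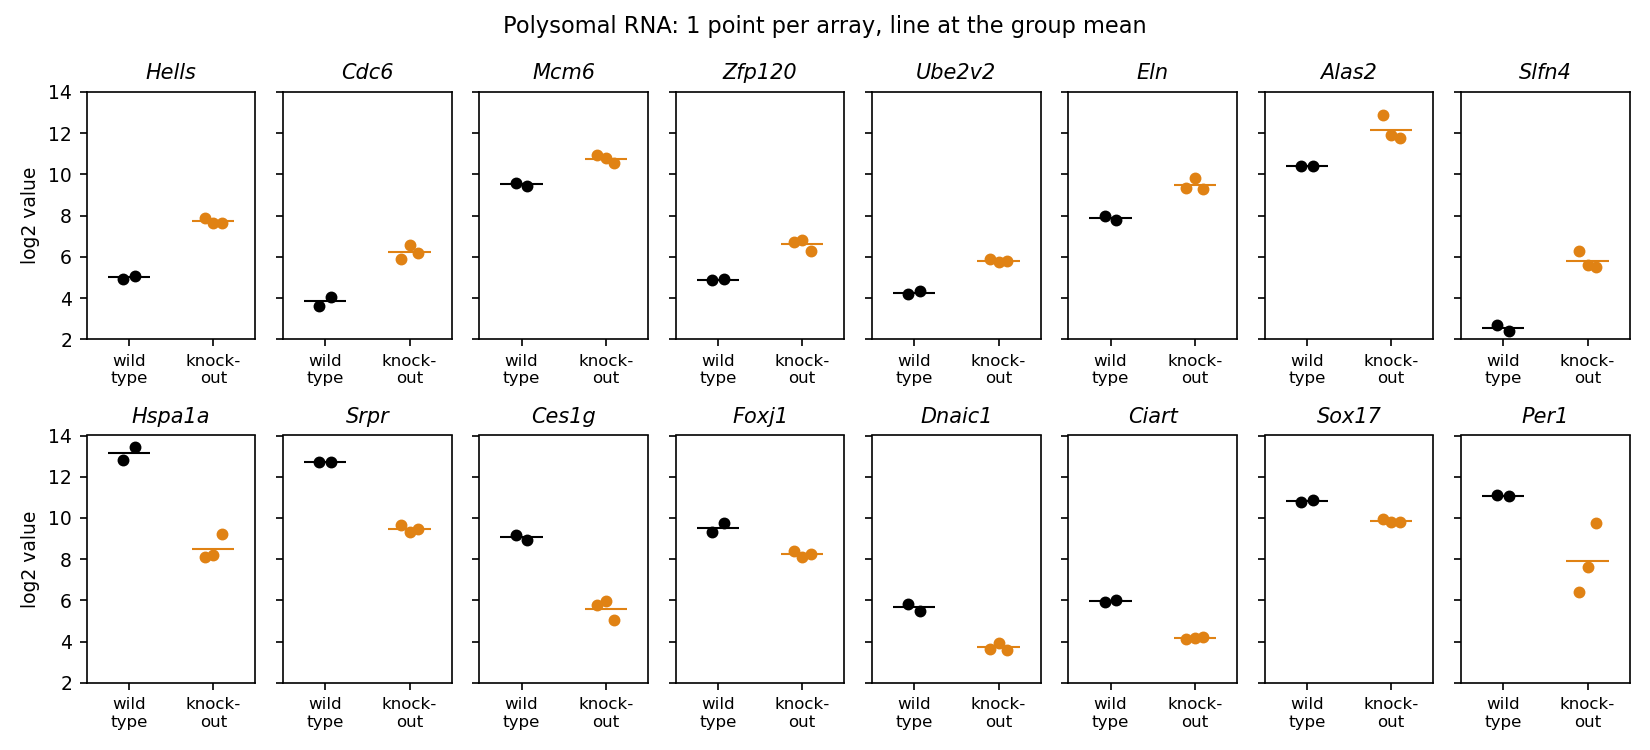
Log2 values of 16 genes on the 2 wild-type (black) and 3 knockout (orange) polysomal arrays, with lines at the group means. In the upper row the knockout points lie above the wild-type points and in the lower row below them. Slfn4 starts near the floor of 2.30 to 2.35, and Per1 spreads from 6.41 to 9.77 in knockout.

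Enzymes that modify foreign compounds were lower. Of 53 tested cytochromes P450 and other phase 1 enzymes 16 fell (30.2%, against 6.77% of all genes), none rose in the limma fit and 37 did not pass. The median was -0.47, with 47 of the 53 values below 0. At an unadjusted p under 0.05, 23 lay below and 1 above 0. Ces1g, a carboxylesterase with the largest fall of the list, read 9.18 and 8.93 in wild type and 5.77, 5.96 and 5.07 in knockout, so it fell by 3.46, an 11-fold difference (SE 0.50, limma adjusted p = 0.0028). Ces1f read 10.56 and 10.50 against 8.33, 8.50 and 8.80 (-1.99, SE 0.30, adjusted p = 0.0032), and Ces1e 10.35 and 10.21 against 8.85, 8.92 and 8.90 (-1.39, SE 0.09, adjusted p = 0.00018). The 3 genes are close relatives whose probes may share signal, which was not tested, and all 3 fell in total RNA too, Ces1g by 1.62 (adjusted p = 0.028), Ces1f by 1.19 (adjusted p = 0.012) and Ces1e (SE 0.08 log2, adjusted p = 0.00018).

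Among the cytochromes, Cyp4f15 read 7.75 and 6.64 against 5.25, 5.20 and 5.05 (-2.03, SE 0.27, limma adjusted p = 0.0024), Cyp2d22 fell by 1.24 (SE 0.20, adjusted p = 0.0042) and Cyp2s1 by 0.90 (SE 0.13, adjusted p = 0.0033). These and the esterases were the 6 stable members. The epoxide hydrolase Ephx1 read 13.72 and 13.76 against 12.53, 12.76 and 12.78 (-1.04, SE 0.20, adjusted p = 0.0097) and was lost without wild-type replicate 2 (adjusted p = 0.054). The flavin monooxygenase Fmo2 (-0.86) was lost on removal of any of 4 arrays (up to 0.17). The number of phase 1 genes that fell was 8 without either wild-type array or knockout replicate 1, 9 without knockout replicate 2 and 13 without knockout replicate 3.

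Conjugating phase 2 enzymes fell in 4 of 29 cases (13.8%) and rose in 1 (3.45%), against 6.77% and 8.36% of all genes. Those that fell numbered 1 without either wild-type array or without knockout replicate 2. Gsta2, a glutathione transferase, read 13.19 and 12.94 in wild type and 11.53, 11.65 and 11.66 in knockout (-1.45, SE 0.15, limma adjusted p = 0.00077) and was stable. The metallothioneins Mt1 and Mt2, which bind zinc and copper, fell by 1.17 (SE 0.14, adjusted p = 0.0016) and by 0.95 (SE 0.16, adjusted p = 0.0054), both stable. Club cell genes fell in 9 of 29 cases (31%, against 6.77% of all genes) and rose in 1 (3.45%, against 8.36%). Of those that fell, 6 are phase 1 enzymes counted above, and another was Sec14l2, a lipid transfer protein, which read 8.63 and 8.94 against 7.17, 7.38 and 7.32 (-1.49, SE 0.13, adjusted p = 0.00046) and was stable. Scgb1a1, the defining secretoglobin of club cells, lay at -0.05 (SE 0.08, adjusted p = 0.73). Its level was close to the highest value on each polysomal array (16.28 to 16.57), where a difference may not show. Averaged over the 29 tested club cell genes, the level was 12.42 to 12.46 on the wild-type and 11.88 to 12.03 on the knockout polysomal arrays, and its part in the enzyme result was not tested. The count of club cell genes that fell was 5 without wild-type replicate 1 and 4 without wild-type replicate 2, knockout replicate 1 or knockout replicate 2.

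Alveolar type 2 genes showed no call. Of 28 tested, none rose or fell in the limma fit, with 3 above and 1 below 0 at an unadjusted p under 0.05. The median was 0.02 and the range -0.34 to 0.37. Cxcl15, a chemokine made in quantity by lung epithelium, read 15.51 and 15.48 against 15.70, 15.67 and 15.78 (0.22, SE 0.08, limma adjusted p = 0.10). In total RNA 12 of the 28 rose and none fell, where 17.2% of all genes rose and 5.97% fell.

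Heat shock genes fell in 6 of 36 cases (16.7%) and rose in 1 (2.78%), against 6.77% and 8.36% of all genes. Hspa1a, the inducible chaperone of the HSP70 family, had the largest change of any gene, from 12.83 and 13.46 in wild type to 8.12, 8.20 and 9.21 in knockout. It fell by 4.64, or 24.9-fold (SE 0.74, limma adjusted p = 0.0042), and was stable. Its co-chaperone Dnajb1 read 10.83 and 11.43 against 9.43, 9.56 and 9.91 (-1.50, SE 0.27, adjusted p = 0.0068) and was lost without wild-type replicate 2 (adjusted p = 0.056). Hsph1 fell by 1.59 (SE 0.36), the small heat shock protein Hspb1 by 1.14 (SE 0.28), Dnaja4 by 0.66 (SE 0.15) and Hspa2 by 0.52 (SE 0.10), each lost without 1 to 3 arrays (up to 0.14). Hspb6, which rose by 1.21, read 2.71 on both wild-type arrays, near the floor. Genes that fell numbered 2 without wild-type replicate 2 and 4 to 6 without any other array. In total RNA Hspa1a fell by 3.27 (SE 0.67, adjusted p = 0.0084), and its wild-type total arrays were themselves far apart, at 11.43, 11.83 and 9.01.

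Chaperones of the endoplasmic reticulum and genes of the unfolded protein response held no call. Of 28 tested, none changed in the limma fit, with 1 above and 7 below 0 at an unadjusted p under 0.05, and 2 fell under either alternative scaling. In the neighbouring list of the signal recognition particle, translocon and glycosylation, 4 of 39 fell (10.3%) and 1 rose (2.56%), against 6.77% and 8.36% of all genes. Those that fell numbered 1 without wild-type replicate 1 or knockout replicate 1 and 2 without knockout replicate 2 or 3. Srpr, the receptor that docks ribosomes carrying secretory proteins at the membrane, read 12.69 and 12.70 on the wild-type arrays and 9.64, 9.33 and 9.44 on the knockout arrays. It fell by 3.23, or 9.36-fold (SE 0.20, limma adjusted p = 0.00017), was stable and had the smallest p among the genes that fell. It fell less in total RNA, by 1.36 (SE 0.18, adjusted p = 0.0015), with an interaction of -1.87 (SE 0.27, adjusted p = 0.0040).

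Clock genes and their outputs fell in 7 of 20 tested cases (35%, against 6.77% of all genes) and rose in 1 (5%, against 8.36%). Their median was -0.51. Usp2 read 9.16 and 9.36 in wild type and 6.47, 6.91 and 7.24 in knockout (-2.38, SE 0.33, limma adjusted p = 0.0025). Ciart, a repressor of the clock, read 5.91 and 6.03 against 4.13, 4.16 and 4.24 (-1.79, SE 0.17, adjusted p = 0.00062). Cry1, a core repressor, read 9.06 and 9.62 against 7.83, 8.04 and 7.95 (-1.40, SE 0.21, adjusted p = 0.0033), and Clock, a core activator, moved the other way, from 8.14 and 8.85 to 10.53, 9.75 and 10.03 (1.61, SE 0.24, adjusted p = 0.0032). These 4 were stable, but Ciart passed the filter only through the wild-type polysomal arrays.

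Wee1, a mitotic brake under clock control, fell by 0.89 (SE 0.18, limma adjusted p = 0.012) and was lost without wild-type replicate 2 (adjusted p = 0.086). Hlf (-1.03), Cry2 (-0.65) and Dbp (-0.43) were lost on removal of any of 4 or 5 arrays (up to 0.27). Per1, singled out after its values were seen, had a mean difference of -3.16 (SE 0.97) without passing (limma adjusted p = 0.055). It read 11.13 and 11.04 in wild type but 6.41, 7.61 and 9.77 in knockout, so the knockout arrays differed among themselves by more than most genes did between groups. In total RNA Cry1 fell by as much as on polysomes, by 1.39 (adjusted p = 0.0017), while Ciart (-0.40, adjusted p = 0.088) and Clock (0.30, adjusted p = 0.34) did not pass. The count of clock genes that fell was 3 without wild-type replicate 2 and 4 without knockout replicate 1 or knockout replicate 2. The labels used here give no time of day for the collection of any lung.

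Immediate early genes fell in 4 of 28 cases (14.3%, against 6.77% of all genes), and none rose in the limma fit. At an unadjusted p under 0.05, 2 lay above and 9 below 0. The orphan receptor Nr4a2 read 7.07 and 7.08 in wild type, and in knockout 4.61, 4.92 and, on replicate 3, a higher value that was still below wild type (group means 7.08 and 5.18, difference -1.90, SE 0.33, limma adjusted p = 0.0061) and was stable. Maff fell by 1.62 (SE 0.33, adjusted p = 0.012), lost without wild-type replicate 2 (0.089), and the matrix signalling protein Ccn2 by 0.91 (SE 0.20), lost without either wild-type array (up to 0.072). Dusp6, a phosphatase of ERK, fell by 0.43, lost with any of the 5 (up to 0.16). The count that fell was 2 without wild-type replicate 1 and 1 without wild-type replicate 2.

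For the heat shock and clock genes that moved, promoter sequence is shown for the members whose last 100 bases before the start site hold a match. GAANNTTC, the paired unit of the heat shock element, was searched in heat shock genes and the E-box CACGTG in clock genes, on both strands and in GRCm38.p6 as above. A TTTGAA match can share its last 3 bases with a GAANNTTC match, but the 2 motifs were searched in different lists. Dnaja4 is at chr9:54699459-54699558 on the plus strand, Hspb1 at chr5:135887819-135887918 on the plus strand, Ciart at chr3:95882229-95882328 on the minus strand and Cry1 at chr10:85185055-85185154 on the minus strand.
Dnaja4: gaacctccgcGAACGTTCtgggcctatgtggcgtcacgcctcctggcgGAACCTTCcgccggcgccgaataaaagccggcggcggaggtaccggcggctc
Hspb1: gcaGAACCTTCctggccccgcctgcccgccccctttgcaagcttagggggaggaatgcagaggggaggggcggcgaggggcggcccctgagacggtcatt
Ciart: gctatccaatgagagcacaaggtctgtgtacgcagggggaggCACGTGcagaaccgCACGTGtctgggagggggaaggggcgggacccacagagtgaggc
Cry1: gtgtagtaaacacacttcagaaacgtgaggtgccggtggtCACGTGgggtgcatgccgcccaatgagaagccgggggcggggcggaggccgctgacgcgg

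Dnaja4 shows 2 GAANNTTC matches and Ciart 2 E-boxes within the 100 bases. Over 250 bases, GAANNTTC was found in 4 of the 7 heat shock genes that changed (Hspa1a, Hspb1, Hspb6 and Dnaja4), in 27% of all listed heat shock genes, in 5.99% of the genes tested and in 6.69% of all promoters. CACGTG was found in 2 of 7 clock genes that changed, in 22.7% of those listed, in 10.3% of the genes tested and in 6.02% of all promoters. Of the heat shock genes with a match, 3 fell and Hspb6 rose.

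Of 63 tested matrix structural genes 7 rose (11.1%) and 8 fell (12.7%), where 8.36% of all genes rose and 6.77% fell, with a median of -0.05. Elastin, Eln, read 7.99 and 7.77 in wild type and 9.33, 9.82 and 9.31 in knockout, a rise of 1.60 or 3.04-fold (SE 0.24, limma adjusted p = 0.0032) that was stable. Periostin, Postn, rose by 0.89 (SE 0.17, adjusted p = 0.010), lost without wild-type replicate 2 (0.071). Tnxb, a tenascin that organises collagen, went from 10.08 and 10.42 to 7.86, 8.67 and 8.91 (-1.77, SE 0.26, adjusted p = 0.0030), and thrombospondin 1, Thbs1, from 5.52 and 5.79 to 4.38, 4.62 and 4.49 (-1.16, SE 0.14, adjusted p = 0.0017). The proteoglycan Fmod fell by 1.23 (SE 0.19, adjusted p = 0.0035). The 3 falls were stable. Without wild-type replicate 2 the matrix genes that rose numbered 2, and 5 fell without either wild-type array.

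Of 30 matrix proteases and their inhibitors 2 rose (6.67%) and 4 fell (13.3%), among them Plaur, the urokinase receptor (-0.95), and the protease Mmp23 (-0.47), which were lost without any of 3 and of 4 arrays (up to 0.093 and 0.15). Over all genes 8.36% rose and 6.77% fell. The falls numbered 1 without either wild-type array or knockout replicate 1 and 2 without knockout replicate 2, and 1 gene rose without any array but knockout replicate 1. Mmp14, the membrane-anchored collagenase, read 5.47 and 5.36 against 6.60, 6.42 and 6.55 (1.11, SE 0.11, limma adjusted p = 0.00080) and was stable. Endothelial genes rose in 3 of 45 cases (6.67%) and fell in 4 (8.89%), shares near those over all genes. Sox17, a transcription factor of arterial endothelium, read 10.78 and 10.88 in wild type and 9.93, 9.81 and 9.81 in knockout (-0.99, SE 0.09, adjusted p = 0.00058). Edn1, endothelin, the strong constrictor peptide, read 11.04 and 10.58 against 8.78, 8.98 and 9.28, so it fell by 1.80 or 3.48-fold (SE 0.31, adjusted p = 0.0061). The kinase Bmx fell by 0.51 (SE 0.09, adjusted p = 0.0055). These 3 were stable, and Rasip1 (-0.77), Egfl7 (0.42), Calcrl (0.54) and Tal1 (0.78) were lost without 2 to 4 arrays (up to 0.31). Endothelial genes that rose numbered 1 without wild-type replicate 1 and 0 without knockout replicate 2.

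In growth factor signalling 3 of 33 genes rose and 3 fell (9.09% each), near the 8.36% and 6.77% over all genes. Fgf7, a fibroblast factor that acts on epithelium, read 7.36 and 7.43 against 8.36, 8.69 and 8.67 (1.18, SE 0.13, limma adjusted p = 0.0011). Igf1 read 5.28 and 4.07 against 6.09, 6.14 and 6.13 (1.45, SE 0.30, adjusted p = 0.012). The receptor Egfr read 6.97 and 6.80 against 6.10, 6.01 and 6.02 (-0.84, SE 0.13, adjusted p = 0.0034). The 3 were stable, while Nras (0.62), Fgfr4 (-0.70) and Dusp6 were not stable, and 1 gene fell without wild-type replicate 2. Among lung developmental factors Irx1 fell 4.01-fold (SE 0.23 log2, adjusted p = 0.0011), Cebpb by 0.68 (SE 0.09, adjusted p = 0.0026) and Foxp2 rose by 0.87 (SE 0.14, adjusted p = 0.0040), all stable, and in total RNA Foxp2 fell by 0.71 (adjusted p = 0.0044).

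Solute carriers, counted by symbol, fell in 24 of 155 cases (15.5%) and rose in 8 (5.16%), against 6.77% and 8.36% of all genes. Slc3a2, the heavy chain of several amino acid exchangers, read 13.38 and 13.17 in wild type and 12.36, 12.60 and 12.45 in knockout (-0.81, SE 0.11, limma adjusted p = 0.0023). Slco2b1, an organic anion carrier, read 8.16 and 8.26 against 7.43, 7.45 and 7.46 (-0.76, SE 0.10, adjusted p = 0.0023). Slc46a3 fell by 1.09 (SE 0.16) and Slc16a11 by 1.03 (SE 0.15), and the mitochondrial carrier Slc25a46 rose by 0.74 (SE 0.12, adjusted p = 0.0038). These 5 were stable, and 6 of the 24 that fell were. The count that fell was 10 without wild-type replicate 1, 14 without wild-type replicate 2 or knockout replicate 1, and 16 without knockout replicate 2, and the count that rose was 2 to 4 without any of the 5. The sodium channel subunit Scnn1a, which clears fluid from the airspace, fell by 0.75 (SE 0.13, adjusted p = 0.0054) and was stable.

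Lysosomal proteins fell in 7 of 53 cases (13.2%, against 6.77% of all genes), and none rose in the limma fit. At an unadjusted p under 0.05, 2 lay above and 16 below 0, and the median was -0.19. The protease Ctsf went from 8.66 and 7.63 to 5.34, 6.37 and 6.33 (-2.13, SE 0.35, limma adjusted p = 0.0050), and Cln3, a membrane protein whose loss causes a childhood storage disease, from 6.56 and 6.17 to 5.36, 5.49 and 5.76 (-0.83, SE 0.14, adjusted p = 0.0054). Both were stable. Cathepsin K, Ctsk, fell by 1.39 (SE 0.29) and was lost without wild-type replicate 1 (0.084), the sialidase Neu1 by 0.86 and was lost without wild-type replicate 2 (0.057). The count that fell was 4 without wild-type replicate 1. In total RNA 14 of the 53 rose and none fell, where 17.2% of all genes rose and 5.97% fell. Of 43 proteasome subunits 2 fell, of 64 nuclear genes of oxidative phosphorylation 2 rose and 1 fell, and of 65 mitochondrial ribosomal proteins 2 rose, where 15.1% of all genes changed.

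**Figure D4:**
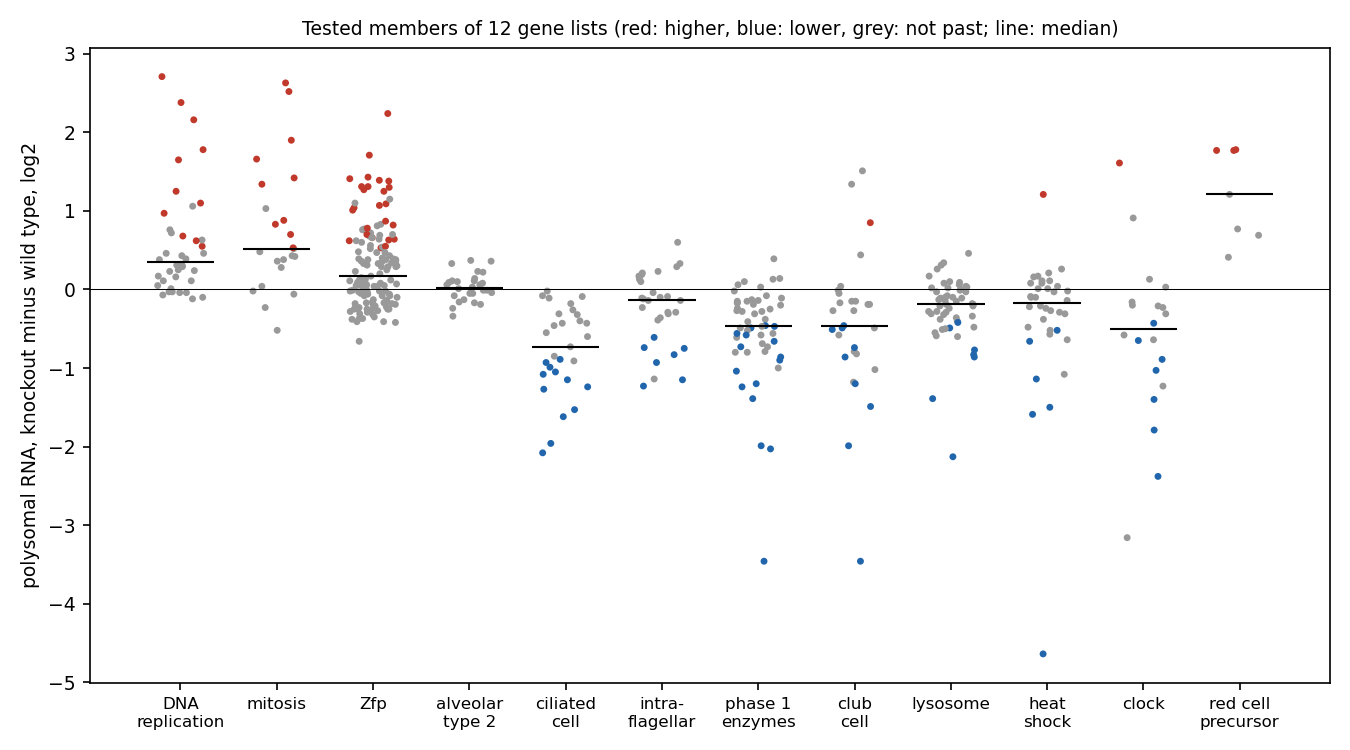
Every tested member of 12 gene lists, as knockout minus wild type in polysomal RNA (log2 units), with a line at each list's median. Red points rose, blue points fell and grey points did not pass. All 29 ciliated cell genes lie below 0, the 28 alveolar type 2 genes lie between -0.34 and 0.37, and the 7 red cell precursor genes lie between 0.41 and 1.78.

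Further genes of the alveolar wall and of lipid synthesis moved singly. Alveolar type 1 genes rose in 3 of 28 cases (10.7%) and fell in 2 (7.14%), near the 8.36% and 6.77% over all genes. Cav2, a caveolin of thin alveolar cells and capillaries, read 12.53 and 12.66 in wild type and 13.44, 13.80 and 13.71 in knockout (1.05, SE 0.15, limma adjusted p = 0.0026), against -0.24 (adjusted p = 0.21) in total RNA. Hmgcs1, an early enzyme of cholesterol synthesis, read 12.35 and 12.33 against 13.24, 13.44 and 13.11 (0.93, SE 0.15, adjusted p = 0.0043). It was the only rise among 48 cholesterol and lipid genes (2.08%), of which 2 fell (4.17%), against 8.36% and 6.77% of all genes. Azin1, which protects the polyamine enzyme ornithine decarboxylase, rose by 0.54 (SE 0.09, adjusted p = 0.0054). Serpinf1, an inhibitor of vessel growth, fell by 0.68 (SE 0.10, adjusted p = 0.0032), and Cx3cl1, a membrane-bound chemokine, by 0.86 (SE 0.14, adjusted p = 0.0048). These 5 genes were stable.

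Interferon response genes rose in 7 of 37 cases (18.9%, against 8.36% of all genes), none fell in the limma fit (9 above and 1 below 0 at an unadjusted p under 0.05), and the median was 0.20. Ifit2 read 8.42 and 8.13 against 9.11, 9.28 and 9.17 (0.91, SE 0.15, limma adjusted p = 0.0042) and was the stable member. Slfn4 had the largest rise of all genes, 3.26 (SE 0.84, adjusted p = 0.030), but it read 2.68 and 2.40 in wild type, at the floor, and its call was lost when any of the 5 arrays was left out (up to 0.14). Without wild-type replicate 2 or knockout replicate 2, 1 interferon gene rose, and 2 and 3 did without knockout replicates 1 and 3. Saa3, an acute phase protein, read 9.83 and 8.89 against 11.56, 11.73 and 11.01 (2.07, SE 0.35, adjusted p = 0.0053), was stable and rose in total RNA as well, by 2.36 (adjusted p = 0.0015).

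Alveolar macrophage genes fell in 4 of 29 cases (13.8%) and those of interstitial macrophages, monocytes and dendritic cells in 5 of 25 (20%), with 2 of the latter higher (8%). Over all genes 6.77% fell and 8.36% rose. Without wild-type replicate 1 the falls numbered 2 and 1, and without knockout replicates 1, 2 and 3 those of the interstitial list numbered 2, 3 and 2. Cd163l1, a scavenger receptor relative, went from 7.36 and 5.87 to 3.93, 4.08 and 3.26 (-2.86, SE 0.45, limma adjusted p = 0.0038) and was stable. Chil3, a chitinase-like protein of alveolar macrophages, fell by 0.89 (SE 0.17, adjusted p = 0.0095), lost without wild-type replicate 2 (0.070), and Csf1r, the receptor that sustains macrophages, by 0.39 (SE 0.08, adjusted p = 0.015), lost without either wild-type array (up to 0.070). Complement genes fell in 5 of 18 cases (27.8%, against 6.77% of all genes) and rose in 1, none of them stable, and 0 to 2 fell when any of the 5 arrays was left out. Jchain, the joining chain of secreted antibodies, read 12.02 and 12.01 in wild type and 9.60, 10.02 and 9.46 in knockout (-2.32, SE 0.55, adjusted p = 0.022). Its call was lost on removal of any of 4 arrays (up to 0.093).

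Red cell precursor genes rose in 3 of 7 tested cases (42.9%, against 8.36% of all genes), and all 7 values lay above 0. Alas2, the heme synthesis enzyme of these cells, read 10.40 and 10.41 in wild type and 12.86, 11.92 and 11.75 in knockout (1.77, SE 0.34, limma adjusted p = 0.0091), a stable call. Bpgm, which sets the oxygen affinity of haemoglobin, rose by 1.78 (SE 0.37, adjusted p = 0.013) and was lost without wild-type replicate 1 (0.060) or wild-type replicate 2 (0.069). The count that rose was 1 without either wild-type array. Alas2 and Bpgm were highest on knockout replicate 1. The mean of the 7 genes was 9.25 to 9.32 on the wild-type and 10.08 to 11.15 on the knockout polysomal arrays, and in total RNA the lowest wild-type array had 8.44 and the knockout arrays 9.18 to 9.99, again above every wild-type array. Heart muscle genes, another tissue that can be carried along with a lung, rose in 1 of 14 cases (7.14%, near the 8.36% of all genes). This was Tnnc1 (1.06, SE 0.26), a call lost without wild-type replicate 1. The part of these genes in the other results was not tested.

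Set beside total RNA, most polysomal changes had no called counterpart. Of the 676 genes that rose on polysomes, 99 (14.6%) also rose in total RNA, 85 (12.6%) fell there and 492 (72.8%) did not pass. Over all genes 17.2% rose and 5.97% fell in total RNA. The 99 are 7.11% of the 1393 genes that rose in total RNA. Of the 547 genes that fell on polysomes, 71 (13%) also fell in total RNA, 53 (9.69%) rose and 423 (77.3%) did not pass, and the 71 are 14.7% of the 483 that fell in total RNA. The interaction test, which shares the polysomal arrays, found the polysomal change beyond the total RNA change for 400 (59.2%) of the genes that rose and 303 (55.4%) of those that fell. Across all genes this test called 1803 (22.3%), 652 above 0 (8.06%) and 1151 below (14.2%).

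**Figure D5:**
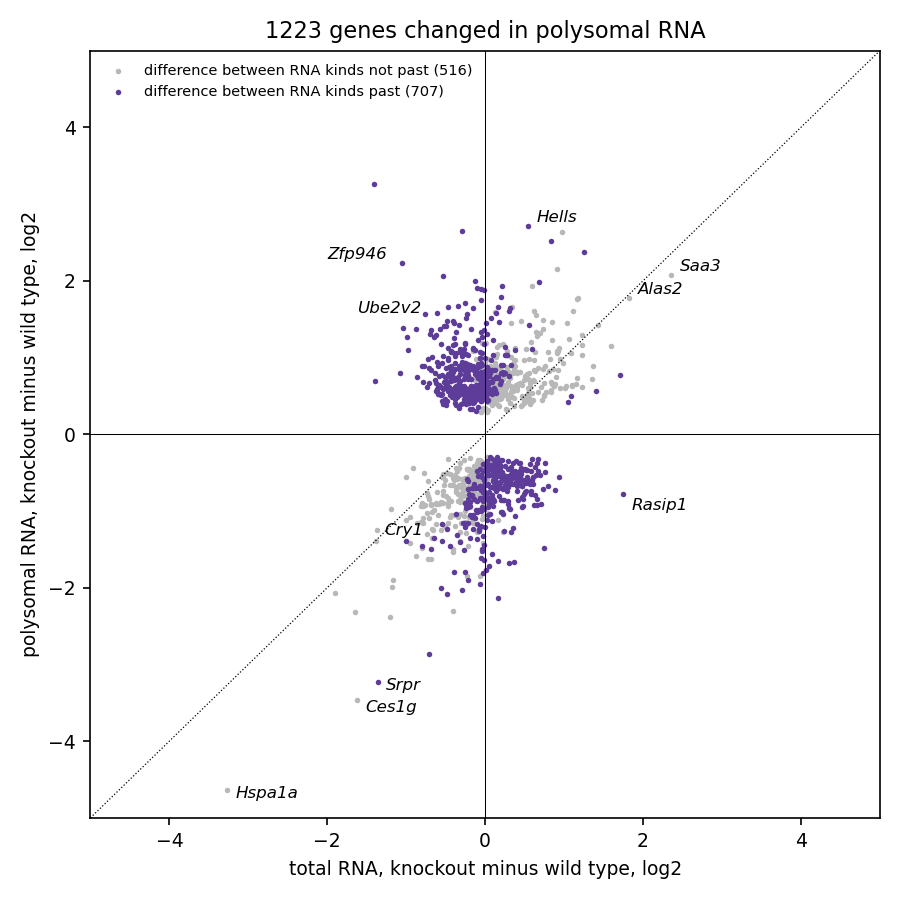
The 1223 genes changed in polysomal RNA, with the total RNA difference on the horizontal and the polysomal difference on the vertical axis, both knockout minus wild type in log2 units. Purple marks 707 genes whose differences in the RNA kinds differed from each other by limma, grey the other 516, and the dotted line marks equal change. Hspa1a, Cry1, Alas2 and Saa3 lie in the quadrants of shared direction, Zfp946, Ube2v2 and Rasip1 in the others.

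Genes that rose had a median wild-type level of 8.27 in polysomal and 9.32 in total RNA, and genes that fell had 8.89 and 7.92, where all genes had 8.75 and 8.44. The knockout medians were 8.98 in polysomal and 9.36 in total RNA for the genes that rose, and 8.07 and 7.86 for those that fell. The wild-type polysomal arrays enter both the calls and these medians, so the pattern is a description. Both directions held genes whose change matched in size across RNA kinds, as for Alas2 (1.77 on polysomes and 1.82 in total RNA) and Cry1 (-1.40 and -1.39), and genes with a polysomal change alone. Tspan4, a tetraspanin of migrating cells, went from 12.88 and 12.54 to 10.61, 10.99 and 11.11 on polysomes, so it fell by 1.81 or 3.5-fold (SE 0.21, limma adjusted p = 0.0011), against -0.03 (adjusted p = 0.92) in total RNA. Bmt2, a methyltransferase that restrains mTOR signalling, went from 6.88 and 6.61 to 8.35, 8.75 and 8.39 (1.75, SE 0.18, adjusted p = 0.00083), against -0.05 (adjusted p = 0.85).

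The neighbours of the targeted genes were counted after the data had been seen, using the order of genes in RefSeq GRCm38.p6. Within 5 Mb of Eif4ebp2, 11 of 38 tested genes changed (28.9%, against 15.1% of all genes), 6 higher and 5 lower, and within 5 Mb of Eif4ebp1, 2 of 27 did (7.41%). Near Eif4ebp2, Spock2, a matrix proteoglycan of alveolar type 1 cells, read 6.65 and 6.16 in wild type and 4.61, 5.04 and 4.87 in knockout (-1.56, SE 0.18, limma adjusted p = 0.0012) and lay at 0.09 in total RNA. Fam241b rose by 1.16 on polysomes and had a total RNA difference of 1.23.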

How the data were processed

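The authors deposited 1 table of log2 values for 11 Affymetrix arrays, processed with GCRMA per the submitters' processing notes; its version, the probe grouping and the genome build are not given in the sources used here. The table holds 26180 probe sets named by RefSeq accession. Of these, 15228 matched 1 gene in RefSeq GRCm38.p6 and 10952 matched none; 7538 rows exactly repeat another. Probe sets at a log2 value of at least 5 on at least 2 arrays were tested, 13802 in all, 5272 of them with no gene name; a gene with several probe sets, among 8085 genes, took the one of highest mean value. Groups follow the labelled genotype and RNA kind. limma 3.58.1 (R 4.3.3) estimated a mean for each of the 4 groups from all 11 arrays, leaving 7 residual degrees of freedom, with Benjamini-Hochberg adjustment over all tested probe sets at 0.05; figures used matplotlib 3.10.9. The fit was tested on simulated data. It recovered 18% of made differences of 0.5 log2, 78% of those of 1 and 98% of those of 1.5. A gene that did not pass may therefore still differ. The small number of arrays limits the precision.

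Named genes were the 25 largest rises and falls, the 10 smallest p in each direction, the 10 largest of each class set beside total RNA, up to 8 called members of each list (otherwise the 2 with the smallest p), and 10 genes always given, among them the 4E-BPs, Eif4e and lung markers. Cdt1, Mcm7, Fam241b and Per1 fall outside that rule and were named after their values were seen. The comparison, its members and the gene lists were chosen with earlier results of these data known. Alternatives covered the filter, the moderation, the scaling between arrays, the samples fitted, a replicate block, the threshold, a minimum fold, the choice of probe set and leaving out each array; a filter on the total RNA arrays was added after the data had been seen. Some results are not reported here.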

Additional observations from a re-analysis of the deposited data

Results flagged for a closer look

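In 138 genes polysomal and total RNA changed in opposite directions and the difference itself passed by limma. The polysomal change minus the total RNA change was 3.28 for Zfp946, 2.44 for Zfp948, 2.26 for Fam122b, 2.25 for Lig4 and 2.19 for Ube2v2, and it was -2.52 for Rasip1. Zfp946, Zfp948, Fam122b, Lig4 and Ube2v2 rose on polysomes and fell in total RNA. Fam122b read 3.25 and 3.64 on the wild-type and 4.49, 5.06 and 4.61 on the knockout polysomal arrays, a rise of 1.27, and fell by 0.99 in total RNA. Zfp948 read 4.07 and 4.66 against 5.68, 6.20 and 5.38 on polysomes, a rise of 1.39, and fell by 1.05 in total RNA. Rasip1, which guides the opening of blood vessel tubes, went the other way: it fell by 0.77 on polysomes and rose by 1.75 in total RNA, from a mean of 3.97.

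Outside the named genes, 818 of 5272 tested probe sets without a gene name (15.5%) changed in polysomal RNA, 525 higher and 293 lower in knockout. They enter no other count.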

How the results depend on the processing

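The 1223 changed genes (676 higher, 547 lower) became 684 (354 and 330) when the polysomal arrays were fitted alone, 370 (203 and 167) at a threshold of 0.01, 1906 at 0.1 (902 lower) and 51 (23 and 28) against a minimum fold of 1.5. Leaving out 1 polysomal array gave 619 to 930 changed genes, 352 to 511 higher and 267 to 419 lower. The 1876 genes changed in total RNA became 4216 with no filter, 739 at 0.01, 69 against a minimum fold of 1.5 and 964 to 2162 with 1 array left out. The 1803 genes whose polysomal and total RNA changes differed became 473 at 0.01, 37 against the minimum fold and 1068 to 2087 with 1 array left out. Where fewer arrays or a stricter threshold did not set the count by construction, the cause was not tested. No named gene reversed under any alternative, but calls were lost. Of 320 named genes 310 had a call in the main fit. It was lost for 128 with the polysomal arrays fitted alone, 76 with no filter and 270 against the minimum fold. Of the 1223 changed genes 597 kept call and direction with those arrays alone and 859 with no filter. The other filters, the moderation, the scalings and the choice of probe set left the polysomal counts within 1.5 times.

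The labels give the arrays set letters without explaining them, and the polysomal groups share 2, B and C. Deviations from the group means correlated at 0.12 for B with B and 0.10 for C with C. With 2 wild-type arrays, their deviations are equal and opposite. The values across letters, -0.10 and -0.12, therefore repeat the same correlations with the sign turned and add nothing on whether the letters pair arrays. With the letter as a replicate block the fit called 776 genes (439 higher and 337 lower) and 1178 for the difference between RNA kinds. Of the 1223 changed genes 669 kept call and direction under the block, and 103 of the 310 named genes with a call lost it. With 3 arrays against 2, genes of small change or near the floor are the least determined.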
